A study of Homo sapiens with 10 samples.

Results

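The extracellular matrix genes described here are 37 genes for collagen chains, laminin chains, nidogens and perlecan, fibronectin and microfibril proteins, small proteoglycans, and the enzymes that crosslink collagen. They were listed by symbol, by a rule that names no measured value, but with earlier results of these data known. All 37 were found among the 62750 gene IDs of the count table. Of these, 35 had enough reads to be tested, among 15740 genes tested in all, and COL13A1 and VCAN did not. COL13A1, a transmembrane collagen chain, had between 0 and 6 counts per library, and VCAN, the large proteoglycan versican, between 1 and 9.

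Collagens are trimers of intertwined chains. The fibrillar types give tissue its tensile strength, and type IV forms the network of the basement membrane, the sheet on which epithelial cells rest. Laminins are heterotrimers of an alpha, a beta and a gamma chain, which nidogens and perlecan link to the type IV network, and lysyl oxidases crosslink collagen outside the cell. Endometriotic lesions are known for fibrosis, in which such matrix accumulates around epithelial glands and stroma.

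The cells were 12Z, an immortalised epithelial line from a peritoneal endometriosis lesion, and poly(A)-enriched RNA was sequenced to ask how inhibitors of the stress kinase JNK change the response to the inflammatory cytokine IL1β. All 5 groups were grown in 10% fetal bovine serum, starved overnight in 2% charcoal-stripped serum, pretreated for 30 minutes and collected after 6 hours. The vehicle group received DMSO and no cytokine, and the IL1β group received DMSO and 10 ng/ml IL1β. The other groups received IL1β after 1 µM CDD-2728, after 10 µM CDD-2728, or after 1 µM CDD-3013, and no group received an inhibitor alone. Each group had 2 libraries. Nothing in the labels says that these came from separate cultures, so p-values measure the spread between these libraries, which may be technical.

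The libraries held 16312600 to 19479416 counts, and the 37 genes took between 1.449% and 1.796% of them. Keratin KRT8 led the epithelial markers at a mean of 6770 CPM (counts scaled to library size), followed by KRT18 and KRT19 at 2050 and 1120, but 7 of the 14 were under 1 CPM, with EPCAM at 0.0729, ESRP1 at 0.0106, CLDN7 at 0.186 and GRHL2 at 0. Under 1 CPM were also 14 of 16 immune, 5 of 9 endothelial, 3 of 8 smooth muscle, 2 of 15 stromal and fibroblast, and 1 of 9 mesothelial markers. Several defining epithelial genes were thus at or near 0, and keratins held most of the epithelial sum. The summed level of the 14 epithelial markers ranged from 8140 to 13500 CPM over the libraries, with group means of 9090 with IL1β and 12900 with CDD-3013. That of the 15 stromal and fibroblast markers ranged from 972 to 1260 CPM, that of the 9 mesothelial markers from 929 to 1270, that of the 8 smooth muscle markers from 97.9 to 143, and that of the 9 endothelial markers from 28.8 to 66.7. The part of these differences in the results below was not tested. In bulk RNA, fewer cells of a type and less RNA per cell cannot be told apart.

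By level per length, that is mean CPM per kb of exon over the 10 libraries, the order was led by LUM at 384 CPM per kb, which encodes lumican, a small proteoglycan that binds collagen fibrils. COL3A1, the chain of type III collagen, followed at 317, COL1A1, the alpha 1 chain of type I collagen, at 285, COL5A2 of type V collagen at 148 and COL6A1 of type VI collagen at 109. The order of LUM, COL3A1 and COL1A1 depends on the length used. Summed exons exceed the longest transcript for COL3A1 (6811 against 5543 bases) and COL1A1 (9819 against 6727), while both lengths are 3008 bases for LUM. COL1A2, the partner of COL1A1 in type I collagen, was 31st of 37 at 2.02 CPM per kb, and COL6A3, the large chain of type VI collagen, 34th at 0.0835. The lowest were NID2, VCAN and COL13A1. The list thus held high levels of some chains of a trimer beside low levels of their partners.

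**Figure D1:**
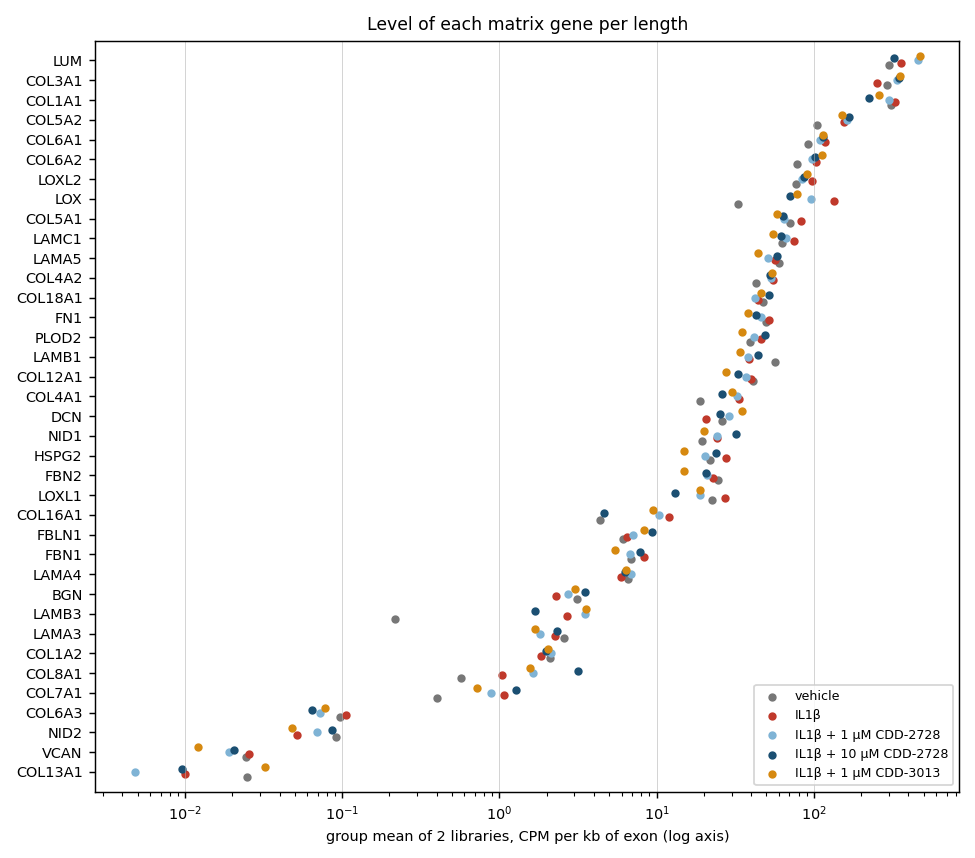
Group means of 2 libraries for all 37 genes, in CPM per kb of exon on a log axis, ordered by the mean over all libraries. LUM, COL3A1 and COL1A1 lead, COL1A2 lies far below COL1A1, and LAMB3 has the widest gap between vehicle and the other groups.

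IL1β was followed by higher levels of more matrix genes than lower ones. By edgeR's quasi-likelihood test with Benjamini-Hochberg adjustment over all tested genes, 19 of 35 rose, 3 fell and 13 did not pass an adjusted p of 0.05. Among all genes tested, 17.6% rose and 15% fell, against 54.3% and 8.57% of the matrix genes. The list was chosen with earlier results of these data known, so these shares are description and not a test. The matrix genes were far above the middle of the tested genes in level, and of the 452 tested genes at least as abundant as the middle matrix gene (349 CPM), 42.9% rose and 4.65% fell. Their median log2 change was 0.24, with -0.01 over all tested genes. The count depended on scaling: with library totals in place of TMM factors, 9 matrix genes rose and 9 fell, the median of all tested genes moved to -0.18, and the split over all tested genes went from 2769 higher and 2360 lower to 1623 higher and 4730 lower. The 10 genes whose rise was not called with library totals were COL4A2, COL5A1, COL6A1, FBN1, HSPG2, LAMC1, LOXL1, LUM, NID1 and PLOD2, and each still had a log2 change above 0. The 3 genes that fell were COL3A1, LAMB1 and DCN. That count was smaller without vehicle replicate 2 and without IL1β replicate 1, as was the count of falls over all tested genes.

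In all, 4 of the 19 rose at least 2-fold: LAMB3, LOX, COL16A1 and COL7A1. With IL1β and inhibitor, the matrix genes divided. Against IL1β alone, 1 µM CDD-2728 raised 4 and lowered 4 of 35, where 2.03% of all tested genes rose and 2.57% fell. At 10 µM, CDD-2728 raised 8 and lowered 10, where 15.6% of all rose and 15.9% fell, and 1 µM CDD-3013 raised 6 and lowered 17, where 19% of all rose and 17.3% fell. Of the 452 genes at least as abundant as the middle matrix gene, 5.97% rose and 5.31% fell at 1 µM CDD-2728, 12.8% and 30.1% at 10 µM, and 47.6% and 17.7% with CDD-3013. These comparisons share the 2 IL1β libraries, so the values below stand side by side and are not independent of each other.

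**Figure D2:**
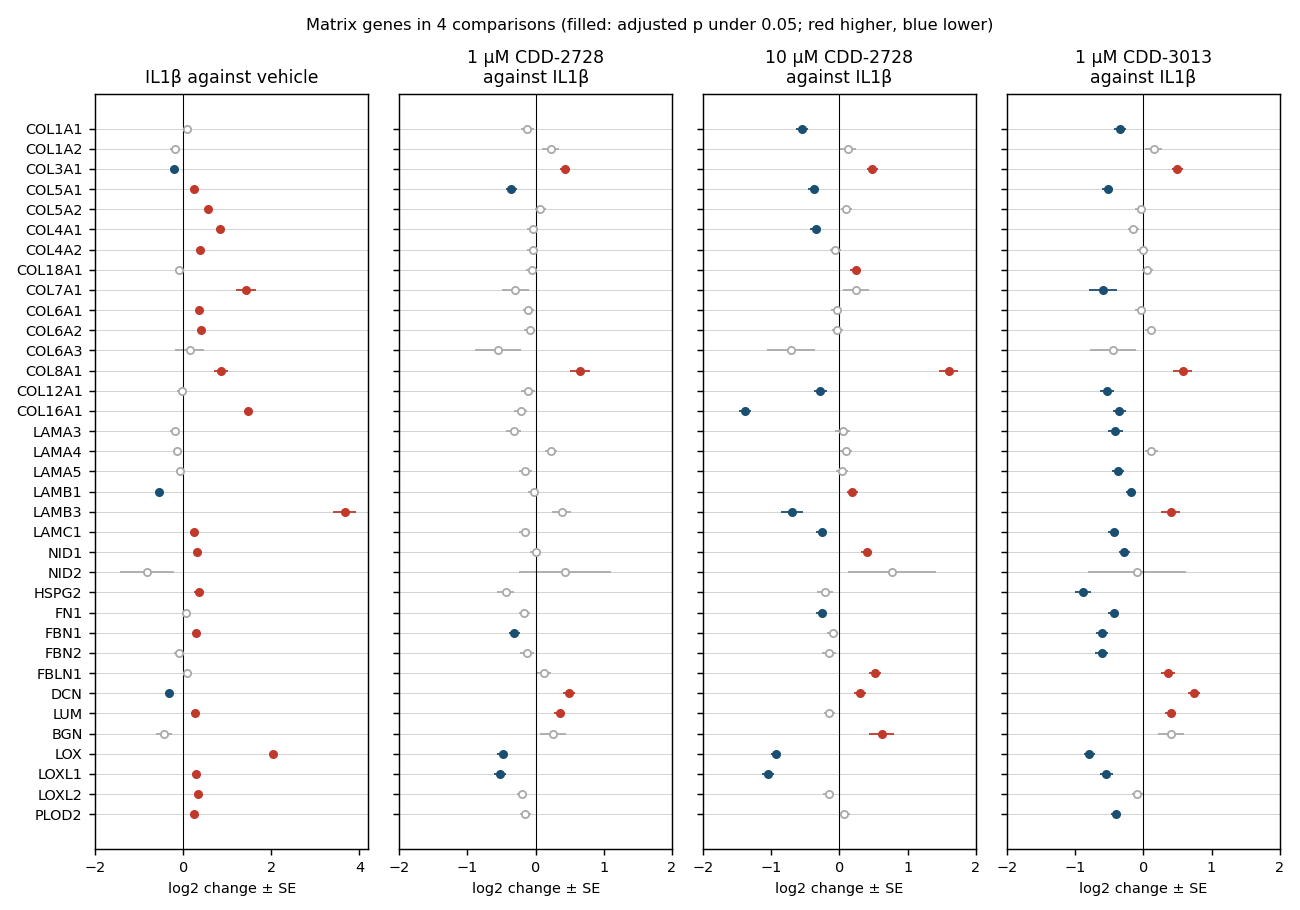
Log2 change with its standard error for the 35 tested genes, ordered by role, in the IL1β comparison and the 3 inhibitor comparisons against IL1β. Filled points passed an adjusted p of 0.05, red for higher and blue for lower, and the first panel has a wider axis. LAMB3, LOX, COL16A1 and COL7A1 lie past a log2 change of 1 with IL1β, and COL8A1 lies at 1.60 and COL16A1 at -1.38 with 10 µM CDD-2728.

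Among the 6 laminin chains, LAMB3 had the largest change with IL1β. It encodes the beta 3 chain, which pairs with the alpha 3 chain of LAMA3 in the laminin that anchors epithelium to its basement membrane. Its level was 0.692 and 1.33 CPM in the vehicle libraries, 12.0 and 13.3 with IL1β, 16.6 and 16.4 with 1 µM CDD-2728, 7.10 and 8.67 with 10 µM, and 16.9 and 16.5 with CDD-3013. Both vehicle libraries were below all others, and both 10 µM libraries lay between vehicle and the remaining groups without overlap. IL1β raised LAMB3 12.6-fold, a log2 change of 3.66 with SE 0.26 (edgeR adjusted p = 2.38e-12), from 15 and 26 counts in vehicle to 215 and 212. At 10 µM CDD-2728 it was 1.61-fold lower than with IL1β alone (log2 -0.69, SE 0.16, edgeR adjusted p = 0.0016) and 2.10-fold lower than at 1 µM (adjusted p = 1.79e-05). CDD-3013 moved it the other way, 1.32-fold above IL1β (adjusted p = 0.0332, 0.0779 with length and GC content offsets and 0.0871 with library totals).

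The partner chain LAMA3 was not called with IL1β, and whether its change differs from that of LAMB3 was not tested. Its level was 41.0 and 34.8 CPM in vehicle, 35.3 and 30.8 with IL1β, 25.5 and 27.5 with 1 µM CDD-2728, 35.6 and 33.1 with 10 µM, and 25.1 and 24.5 with CDD-3013. Its change with IL1β was -0.20 on the log2 scale (95% interval -0.42 to 0.02, edgeR adjusted p = 0.138), and its vehicle and IL1β libraries overlapped. With CDD-3013 it fell by 0.41 against IL1β (adjusted p = 0.00354), a call lost with length and GC content offsets (log2 -0.15, adjusted p = 0.239). Per kb of exon, the LAMA3 to LAMB3 ratio was 18.9 and 8.37 in vehicle, 0.937 and 0.738 with IL1β, and 1.60 and 1.22 with 10 µM CDD-2728. LAMB3 was thus the scarcer of the pair per length in both vehicle libraries and both 10 µM libraries, and LAMA3 in both IL1β libraries. The order with IL1β depends on the length used: with longest transcript length the mean log2 ratio there was 0.07.

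The sequences just upstream of LAMB3 and LAMA3 are shown because both hold a match to the AP-1 motif, which JNK's target transcription factors of the Jun and Fos families bind, and LAMB3 also holds a match to the κB consensus of NF-κB, the main transcription factor downstream of IL1β. They are from RefSeq (GRCh38.p14), 5′ to 3′ on the gene's strand, with the match in capitals, and the distance is given from the annotated start.
LAMB3, outer start, chr1:209652467-209652675, minus strand, κB match at -59 to -50: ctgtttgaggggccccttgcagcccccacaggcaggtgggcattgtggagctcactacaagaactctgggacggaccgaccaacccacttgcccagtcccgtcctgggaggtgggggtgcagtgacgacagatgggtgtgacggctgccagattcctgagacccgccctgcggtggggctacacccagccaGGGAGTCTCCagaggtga
LAMB3, inner start, chr1:209651395-209651624, minus strand, AP-1 match at -67 to -61: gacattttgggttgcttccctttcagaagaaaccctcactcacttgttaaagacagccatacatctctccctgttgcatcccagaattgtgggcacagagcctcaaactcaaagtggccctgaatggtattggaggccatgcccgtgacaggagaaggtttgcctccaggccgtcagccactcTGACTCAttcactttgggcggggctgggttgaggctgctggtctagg
LAMA3, chr18:23872885-23872911, plus strand, AP-1 match at -125 to -119: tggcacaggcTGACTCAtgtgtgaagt
LAMA3, chr18:23872941-23872967, plus strand, AP-1 match at -69 to -63: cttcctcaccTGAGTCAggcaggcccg
The table held windows for 28 of the 37 genes, and COL1A1, COL1A2, COL3A1, COL5A2, COL6A1, COL8A1, DCN, LUM and LOXL2 had none. The 250 bases upstream of each start were searched on both strands. The AP-1 motif TGANTCA was in 2 of 28 genes, LAMA3 and LAMB3, and in 6.57% of 35116 windows of all genes. The κB consensus was in 5 of 28, COL6A2, COL7A1, FBLN1, LAMB3 and NID1, and in 9.96% of all windows, and its matches can overlap each other on opposite strands. The GC box GGGCGG was in 23 of 28 genes and 42.6% of windows, the CCAAT box CCAAT in 9 and 32%, and the TATA box TATAAA in 4 and 10.7%. Some genes have several starts, so the counts per gene and per window are not on the same base. LAMA3 and LAMB3 both hold AP-1 matches, those of LAMA3 upstream of a start inside the gene and that of LAMB3 upstream of its inner start only. Whether any match bears on the changes of these genes was not tested. A match is a description of these letters only.

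The chains of the widespread laminins moved less. LAMB1, the beta 1 chain, stood at 471 and 454 CPM in vehicle, 315 and 314 with IL1β, 297 and 321 with 1 µM CDD-2728, 368 and 349 with 10 µM, and 281 and 274 with CDD-3013. IL1β lowered it 1.47-fold (log2 -0.56, SE 0.08, edgeR adjusted p = 3.8e-07), with no overlap between the groups. At 10 µM CDD-2728 it was 0.19 higher than with IL1β (adjusted p = 0.0312) and still below vehicle (log2 -0.37, adjusted p = 1e-04). LAMC1, the gamma 1 chain that joins LAMB1, had 527 and 534 CPM in vehicle, 632 and 618 with IL1β, 539 and 578 with 1 µM CDD-2728, 544 and 498 with 10 µM, and 454 and 475 with CDD-3013. It rose with IL1β (log2 0.24, adjusted p = 0.00879) while LAMB1 fell, and the LAMB1 to LAMC1 ratio per kb went from 0.924 and 0.878 in vehicle to 0.516 and 0.524. In the 10 µM CDD-2728 libraries that ratio was 0.699 and 0.723. LAMC1 fell by 0.26 at 10 µM CDD-2728 (edgeR adjusted p = 0.00453) and by 0.43 with CDD-3013 (adjusted p = 4.46e-05), where the change was -0.20 with length and GC content offsets (adjusted p = 0.00711). LAMA5, the alpha 5 chain, was called once against IL1β, at -0.37 with CDD-3013 (edgeR adjusted p = 0.00458, and log2 -0.20 with the offsets), and LAMA4, the alpha 4 chain, was not called in any of the 7 comparisons.

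In type IV collagen, the core of the basement membrane, both chains rose with IL1β but to different degrees. COL4A1 was at 287 and 270 CPM in vehicle, 515 and 474 with IL1β, 450 and 510 with 1 µM CDD-2728, 396 and 378 with 10 µM, and 452 and 438 with CDD-3013. It rose 1.77-fold with IL1β (log2 0.83, SE 0.08, edgeR adjusted p = 2.91e-09) and was 0.35 lower at 10 µM CDD-2728 than with IL1β alone (adjusted p = 0.000587). COL4A2 had 840 and 805 CPM in vehicle, 1084 and 1039 with IL1β, 958 and 1105 with 1 µM CDD-2728, 1027 and 1002 with 10 µM, and 1123 and 984 with CDD-3013. Its rise was 1.29-fold (log2 0.37, SE 0.08, adjusted p = 0.000655), and no inhibitor group was called against IL1β. With length and GC content offsets COL4A2 was lower at 10 µM CDD-2728 (log2 -0.18, edgeR adjusted p = 0.0178). The COL4A1 to COL4A2 ratio per kb moved from 0.448 and 0.440 in vehicle to 0.622 and 0.597 with IL1β, and was 0.504 and 0.494 at 10 µM CDD-2728, with no overlap among these groups.

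The COL4A1 and COL4A2 genes lie head to head on chromosome 13, with COL4A1 on the minus strand, and their RefSeq starts at 110307157 and 110307284 leave 126 bases between them. Sites from this shared stretch are shown on the plus strand because both genes have them upstream of their starts.
CCAAT match, chr13:110307169-110307193: gccgagctccCCAATttgttggcgc
GC box match, chr13:110307209-110307234: ggcggtgcgcGGGCGGcgcctcaaag
In GENCODE 29 the 2 genes overlap by 1422 bases. Whether counting used strand is not given in the sources used here, so reads in that overlap cannot be assigned between them with certainty, and 23 of the 37 genes overlap some gene on the opposite strand.

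Of the other basement membrane collagens, COL7A1, whose product forms the anchoring fibrils beneath epithelium, was low and variable. Its level was 5.35 and 3.53 CPM in vehicle, 15.0 and 8.86 with IL1β, 9.36 and 10.2 with 1 µM CDD-2728, 14.0 and 14.5 with 10 µM, and 8.32 and 7.59 with CDD-3013. The IL1β libraries lay wide apart, and both were above vehicle (2.68-fold, log2 1.42, SE 0.22, edgeR adjusted p = 3.46e-05). The difference of -0.59 with CDD-3013 (adjusted p = 0.0305) and that of 0.54 between 10 and 1 µM CDD-2728 (adjusted p = 0.0462) each lost the call in 7 of 19 alternative settings. Among these were leaving out IL1β replicate 1, either 10 µM CDD-2728 replicate or either CDD-3013 replicate for the former, and either replicate of either dose for the latter, with adjusted p up to 0.695 and 0.233. COL18A1, the source of endostatin, was not called with IL1β (log2 -0.10) and was higher at 10 µM CDD-2728 (0.24, edgeR adjusted p = 0.019, and 0.335 with length and GC content offsets).

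The proteins that link these networks included NID1, or nidogen 1, which had 117 and 111 CPM in vehicle, 143 and 142 with IL1β, 132 and 153 with 1 µM CDD-2728, 194 and 183 with 10 µM, and 127 and 109 with CDD-3013. It rose with IL1β (log2 0.32, edgeR adjusted p = 0.00293), and rose further at 10 µM CDD-2728 (0.40, adjusted p = 0.000401), to 1.65-fold above vehicle (adjusted p = 1.08e-07). With CDD-3013 it was 0.28 below IL1β in log2 terms (log2 -0.28, adjusted p = 0.00924). Both 10 µM libraries were thus the highest of the 10. HSPG2, which encodes the heparan sulfate proteoglycan perlecan, stood at 421 and 366 CPM in vehicle, 539 and 461 with IL1β, 333 and 404 with 1 µM CDD-2728, 464 and 399 with 10 µM, and 296 and 247 with CDD-3013. Both CDD-3013 libraries were the lowest of the 10, 1.84-fold below IL1β (log2 -0.88, SE 0.12, edgeR adjusted p = 0.000109). HSPG2 has the longest transcript of the 35 tested genes at 14327 bases, and with length and GC content offsets the change was -0.67 (edgeR adjusted p = 8.16e-07). The 1 and 10 µM CDD-2728 groups were not called against IL1β without offsets. With them both were lower (log2 -0.28 and -0.34, adjusted p = 0.0185 and 0.000677). HSPG2 rose with IL1β by 0.35 (edgeR adjusted p = 0.0411, and 0.271 with library totals). NID2, the second nidogen, had 80 counts in all libraries together and was not called anywhere.

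Fibrillar collagens did not move as a block. With IL1β, COL5A1 and COL5A2 rose, COL3A1 fell, and COL1A1 and COL1A2 were not called. COL1A1 had 3199 and 2873 CPM in vehicle, 3258 and 3200 with IL1β, 2670 and 3278 with 1 µM CDD-2728, 2180 and 2226 with 10 µM, and 2718 and 2398 with CDD-3013. The 10 µM libraries were the lowest, 1.47-fold below IL1β (log2 -0.55, SE 0.09, edgeR adjusted p = 4.79e-05) and 1.38-fold below vehicle (adjusted p = 0.000243). CDD-3013 was 0.34 lower than IL1β (log2 -0.34, adjusted p = 0.00447). COL1A2, its partner, ranged from 18.9 to 25.1 CPM over the 10 libraries and was called in none of the 7 comparisons. The COL1A1 to COL1A2 ratio per kb was 113 to 196 in all libraries.

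COL3A1 went the other way from COL1A1. It had 1985 and 1989 CPM in vehicle, 1629 and 1793 with IL1β, 2235 and 2374 with 1 µM CDD-2728, 2319 and 2458 with 10 µM, and 2490 and 2346 with CDD-3013. IL1β libraries were the lowest and all 6 inhibitor libraries were above both vehicle libraries. IL1β lowered it by a log2 change of -0.22 (edgeR adjusted p = 0.023), and against IL1β the inhibitor groups were 0.43, 0.48 and 0.50 higher (adjusted p = 0.000542, 1.83e-05 and 1.75e-05). Differences among the 3 rises were small: 10 against 1 µM CDD-2728 was 0.05 (95% interval -0.12 to 0.22) and CDD-3013 against CDD-2728 was 0.07 (-0.10 to 0.24).

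In type V collagen, which seeds fibrils, the chains moved apart under the inhibitors. COL5A1 was at 839 and 730 CPM in vehicle, 972 and 884 with IL1β, 669 and 777 with 1 µM CDD-2728, 718 and 705 with 10 µM, and 679 and 618 with CDD-3013. It was 0.24 higher with IL1β (edgeR adjusted p = 0.0259), and the inhibitor groups were at -0.36, -0.38 and -0.52 against IL1β (adjusted p = 0.0109, 0.00101 and 5.29e-05). COL5A2 had 806 and 753 CPM in vehicle, 1187 and 1126 with IL1β, 1171 and 1259 with 1 µM CDD-2728, 1290 and 1197 with 10 µM, and 1153 and 1097 with CDD-3013. Both vehicle libraries were the lowest (1.48-fold rise with IL1β, log2 0.57, SE 0.08, adjusted p = 8.77e-07), and no inhibitor group was called against IL1β. The COL5A1 to COL5A2 ratio per kb was 0.693 and 0.646 in vehicle, 0.545 and 0.523 with IL1β, and between 0.371 and 0.411 in the 6 inhibitor libraries.

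**Figure D3:**
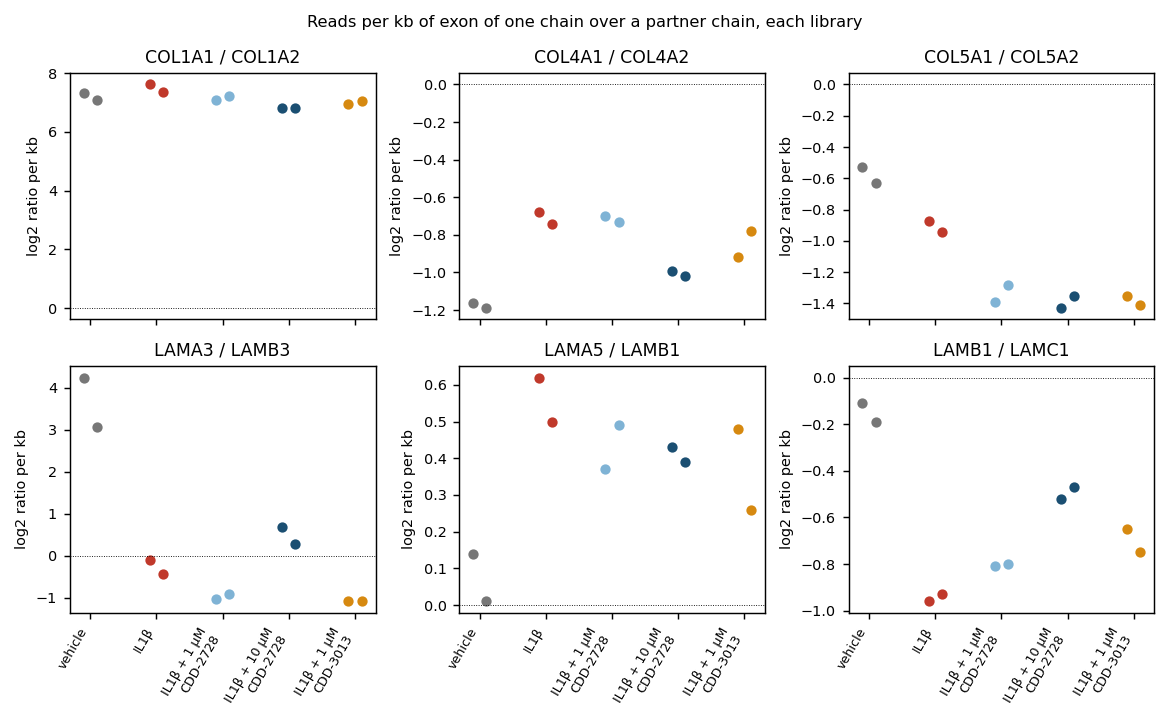
Log2 ratio of CPM per kb of exon for pairs of chains that share a trimer or a laminin, in each library, with a dotted line at equal levels. LAMA3 falls relative to LAMB3 with IL1β, COL4A1 rises relative to COL4A2, and COL5A1 falls relative to COL5A2 from vehicle to IL1β to the inhibitor groups. The ratios are shown as description and were not tested.

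Among the remaining collagens, COL16A1 and COL8A1 moved most, in opposite directions under the inhibitors. COL16A1, a chain that associates with fibril surfaces, had 41.6 and 39.6 CPM in vehicle, 116 and 108 with IL1β, 92.4 and 100.1 with 1 µM CDD-2728, 43.1 and 43.0 with 10 µM, and 92.2 and 83.2 with CDD-3013. It rose 2.76-fold with IL1β (log2 1.46, SE 0.09, edgeR adjusted p = 5.01e-13) and was 2.60-fold lower at 10 µM CDD-2728 than with IL1β alone (log2 -1.38, SE 0.09, adjusted p = 1.18e-11). The 10 µM libraries lay just above vehicle, with a difference of 0.08 that was not called. At 1 µM, CDD-2728 was -0.22 against IL1β (edgeR adjusted p = 0.109) and CDD-3013 -0.35 (adjusted p = 0.000948), and the 2 compounds differed by -0.13 (95% interval -0.31 to 0.05).

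COL8A1, a short-chain collagen of vessel walls and some basement membranes, had 6.05 and 4.70 CPM in vehicle, 9.90 and 9.67 with IL1β, 15.3 and 15.4 with 1 µM CDD-2728, 29.3 and 30.1 with 10 µM, and 14.0 and 15.3 with CDD-3013. No groups overlapped, though the 1 µM arms of the 2 compounds adjoined, and the 10 µM libraries were the highest. It rose 1.81-fold with IL1β (edgeR adjusted p = 7.49e-05) and was 3.03-fold higher again at 10 µM CDD-2728 (log2 1.60, SE 0.14, adjusted p = 1.27e-09), which placed it 5.49-fold above vehicle (adjusted p = 3.17e-13). The rise at 1 µM CDD-2728 was 0.65 (adjusted p = 0.00376), lost without IL1β replicate 1 or without IL1β replicate 2 (adjusted p up to 0.0535), and at 1 µM CDD-3013 it was 0.58 (adjusted p = 0.00153). Between the doses of CDD-2728 the difference was 0.95 (edgeR adjusted p = 3.31e-06), and between the compounds at 1 µM it was -0.07 (95% interval -0.35 to 0.21).

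Type VI collagen forms beaded filaments around cells. COL6A1 and COL6A2 rose with IL1β by 0.36 and 0.40 (edgeR adjusted p = 0.000542 and 0.000106), and neither was called in an inhibitor group against IL1β. With length and GC content offsets both were lower at 10 µM CDD-2728 (log2 -0.20 and -0.24, edgeR adjusted p = 0.0109 and 0.00129). COL6A3, whose chain completes the trimer, stayed between 1.26 and 2.45 CPM, was not called in any comparison, and had per-kb levels far below those of COL6A1 in all 10 libraries. COL12A1, a fibril-associated chain, had 549 and 481 CPM in vehicle, 526 and 476 with IL1β, 424 and 506 with 1 µM CDD-2728, 451 and 372 with 10 µM, and 353 and 339 with CDD-3013. It was not called with IL1β (log2 -0.04), and was lower at 10 µM CDD-2728 (log2 -0.28, edgeR adjusted p = 0.0365) and with CDD-3013 (-0.53, adjusted p = 0.000459). The former was not called with library totals (adjusted p = 0.121), and the latter was -0.20 with length and GC content offsets (adjusted p = 0.0217).

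**Figure D4:**
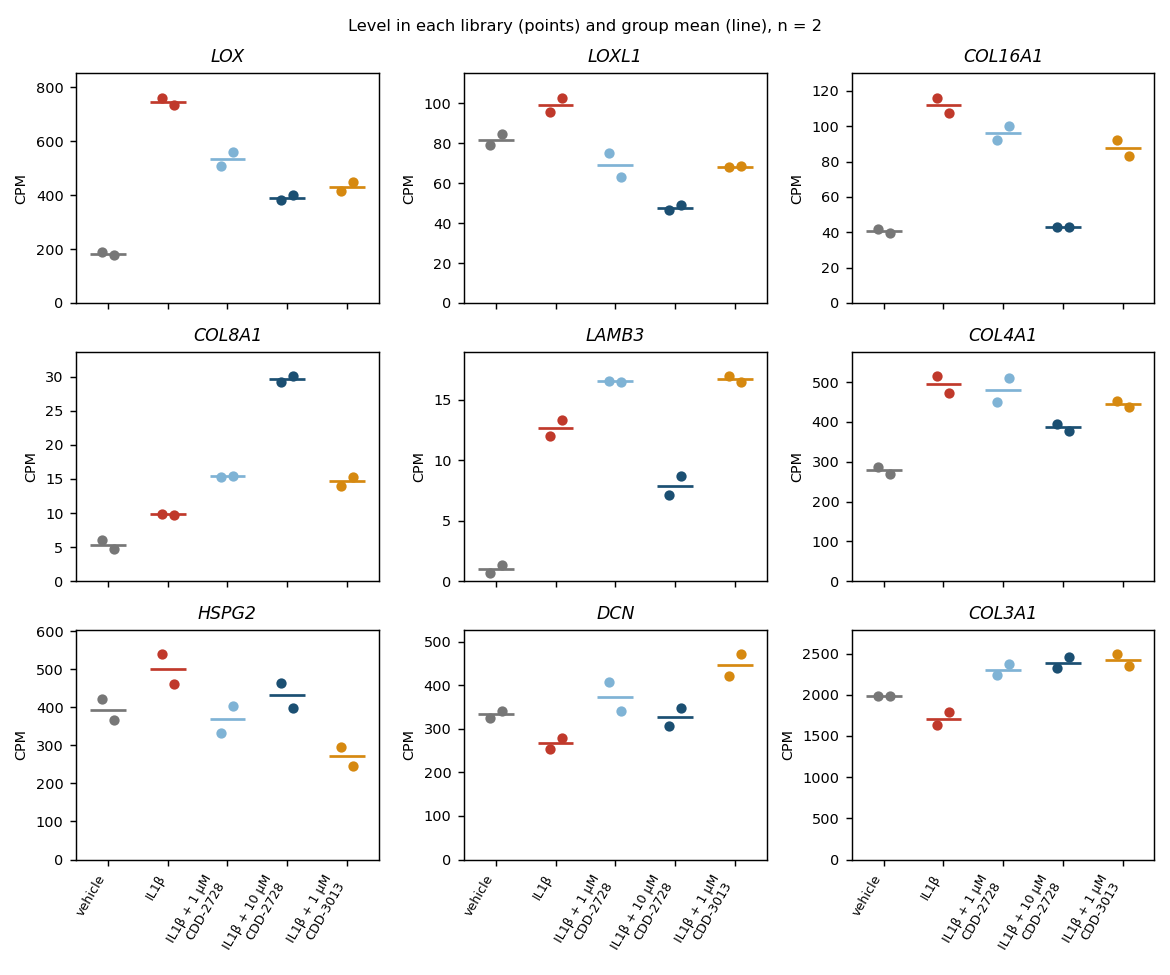
CPM in each of the 10 libraries for 9 of the genes, with a line at the mean of the 2 libraries of a group and axes from 0. LOX and COL16A1 are highest with IL1β, COL8A1 is highest with 10 µM CDD-2728, LAMB3 is near 0 in vehicle, and DCN and COL3A1 are lowest with IL1β.

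The crosslinking enzymes were the role in which all members rose with IL1β, 4 of 4, with a median log2 change of 0.31. LOXL1 and PLOD2 were at 0.11 and 0.06 and not called with library totals. Among all tested genes 17.6% rose, and 42.9% of the 452 genes at least as abundant as the middle matrix gene. Of 4 tested crosslinking genes outside the list 1 rose, with a median of -0.09, so the count describes these 4 genes only. LOX, or lysyl oxidase, had 188 and 178 CPM in vehicle, 761 and 734 with IL1β, 510 and 560 with 1 µM CDD-2728, 381 and 402 with 10 µM, and 416 and 448 with CDD-3013. The vehicle libraries were the lowest and the IL1β libraries the highest, and no group overlapped another. IL1β raised it 4.09-fold (log2 2.03, SE 0.08, edgeR adjusted p = 1.26e-16), and against IL1β it was -0.48, -0.93 and -0.79 with 1 µM CDD-2728, 10 µM CDD-2728 and CDD-3013 (adjusted p = 9.94e-05, 6.51e-10 and 3.31e-08). At 10 µM it was still 2.14-fold above vehicle (edgeR adjusted p = 1.09e-11). LOX was lower with CDD-3013 than with CDD-2728 at 1 µM (log2 -0.31, 95% interval -0.48 to -0.14, adjusted p = 0.00451), and -0.11 with length and GC content offsets (adjusted p = 0.32).

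LOXL1, the lysyl oxidase that also crosslinks elastin, had 79.0 and 84.5 CPM in vehicle, 95.7 and 103 with IL1β, 74.9 and 63.3 with 1 µM CDD-2728, 46.7 and 49.0 with 10 µM, and 68.1 and 68.7 with CDD-3013. All 6 inhibitor libraries were below both vehicle libraries. It rose by 0.28 with IL1β (edgeR adjusted p = 0.00933) and fell 2.08-fold at 10 µM CDD-2728 (log2 -1.05, SE 0.09, adjusted p = 1.96e-09), to 1.71-fold below vehicle (adjusted p = 9.96e-08). At 1 µM the 2 compounds were at -0.52 and -0.54 against IL1β (adjusted p = 0.000271 and 3.39e-05), a difference of -0.02. LOXL2 and PLOD2, a lysyl oxidase and the lysyl hydroxylase that sets the type of crosslink, rose by 0.33 and 0.24 with IL1β (edgeR adjusted p = 0.000247 and 0.00538). LOXL2 was not called in an inhibitor group against IL1β. With length and GC content offsets it was lower with 1 µM CDD-2728, 10 µM CDD-2728 and CDD-3013 (log2 -0.19, -0.30 and -0.20, edgeR adjusted p = 0.0317, 5.94e-05 and 0.00659). PLOD2 was lower with CDD-3013 (log2 -0.40, adjusted p = 4.55e-05), and with length and GC content offsets -0.14 (adjusted p = 0.055).

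Of the 4 genes for fibronectin and microfibril proteins, 3 were lower with CDD-3013 than with IL1β and 1 higher, and 2 remained lower with offsets for length and GC content. The 3 have transcripts of 9171 to 11756 bases, and lower calls were common among long genes in this comparison, as described below. FN1, the fibronectin on which cells assemble matrix, had a log2 change of 0.06 with IL1β that was not called. It was at -0.26 with 10 µM CDD-2728 (edgeR adjusted p = 0.0128, and 0.0633 with library totals). With CDD-3013 it was at -0.43 (adjusted p = 0.000198, and 0.21 with the offsets). FBN1, or fibrillin 1, had 118 and 102 CPM in vehicle, 135 and 134 with IL1β, 101 and 116 with 1 µM CDD-2728, 130 and 121 with 10 µM, and 88.7 and 87.2 with CDD-3013. FBN2, or fibrillin 2, had 356 and 295 CPM in vehicle, 318 and 286 with IL1β, 253 and 298 with 1 µM CDD-2728, 294 and 249 with 10 µM, and 196 and 199 with CDD-3013. For both, the CDD-3013 libraries were the lowest, and both were 1.53-fold below IL1β (log2 -0.61 each, edgeR adjusted p = 6.78e-06 and 0.000205), or at -0.28 and -0.31 with the offsets. FBLN1, or fibulin 1, which binds fibronectin and basement membranes, had 46.3 and 42.7 CPM in vehicle, 44.5 and 50.0 with IL1β, 48.8 and 54.0 with 1 µM CDD-2728, 65.2 and 70.1 with 10 µM, and 63.0 and 57.9 with CDD-3013. It was not called with IL1β and was higher at 10 µM CDD-2728 (log2 0.52, adjusted p = 8.18e-05) and with CDD-3013 (0.36, adjusted p = 0.00289, and 0.0628 with the offsets).

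Of the 3 tested small proteoglycans, DCN was higher than with IL1β in each inhibitor group, LUM in those at 1 µM and BGN at 10 µM. DCN, or decorin, which coats collagen fibrils and binds TGF-β, had 326 and 342 CPM in vehicle, 254 and 278 with IL1β, 408 and 340 with 1 µM CDD-2728, 308 and 347 with 10 µM, and 421 and 471 with CDD-3013. The IL1β libraries were the lowest and the CDD-3013 libraries the highest. It fell with IL1β (log2 -0.33, edgeR adjusted p = 0.00531) and was above IL1β by 0.49 at the lower and 0.30 at the higher dose of CDD-2728 and by 0.74 with CDD-3013 (adjusted p = 0.00105, 0.011 and 2.25e-06). With length and GC content offsets the first 3 of these 4 calls were lost (log2 -0.37, 0.57 and 0.35, adjusted p = 0.096, 0.0811 and 0.116), and the CDD-3013 change was 1.10 (adjusted p = 0.00175). LUM had 929 and 883 CPM in vehicle, 1063 and 1104 with IL1β, 1480 and 1285 with 1 µM CDD-2728, 969 and 985 with 10 µM, and 1476 and 1380 with CDD-3013. The 4 libraries at 1 µM of either compound were the highest, and the 10 µM libraries fell below the IL1β libraries. LUM rose with IL1β (log2 0.26, adjusted p = 0.00835) and with 1 µM of CDD-2728 and CDD-3013 (0.35 and 0.40 against IL1β, adjusted p = 0.00477 and 0.000202). At 10 µM it was lower than at 1 µM CDD-2728 (log2 -0.50, edgeR adjusted p = 2.63e-05) and not called against IL1β (-0.15). BGN, or biglycan, had 7.43 and 7.82 CPM in vehicle, 4.92 and 6.34 with IL1β, 5.98 and 7.48 with 1 µM CDD-2728, 8.01 and 9.27 with 10 µM, and 7.90 and 6.90 with CDD-3013. Its rise of 0.62 at 10 µM against IL1β (edgeR adjusted p = 0.0106) was lost without IL1β replicate 1, without 10 µM CDD-2728 replicate 2 and with length and GC content offsets (adjusted p up to 0.17).

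By dose of CDD-2728, 8 of 35 genes were higher at 10 than at 1 µM and 7 lower, where 13.3% of all tested genes were higher and 13.8% lower. These are 22.9% and 20% of the matrix genes. Of the 452 genes at least as abundant as the middle matrix gene, 7.52% were higher and 30.8% lower. COL8A1, NID1, FBLN1, LAMA3, COL18A1, LAMB1, PLOD2 and COL7A1 were higher, and COL16A1, LAMB3, LOXL1, LUM, LOX, COL1A1 and COL4A1 lower, with COL16A1 and LAMB3 past 2-fold. With length and GC content offsets COL18A1, LAMB1 and COL7A1 were not called (log2 0.03, 0.13 and 0.28, edgeR adjusted p = 0.696, 0.056 and 0.233). LAMC1, COL12A1, LAMA4, COL5A1, COL4A2 and COL6A2 were newly called lower with these offsets. The count of 8 was 4 without replicate 1 of either dose and 5 without 10 µM replicate 2. Against IL1β, the counts for 1 µM, 4 higher and 4 lower, were 0 and 2 without IL1β replicate 1, and the lower count was also 2 without 1 µM replicate 1. The count of 8 higher at 10 µM was 5 without IL1β replicate 1 and 5 without 10 µM replicate 2. In each of these fits with a library left out, fewer of all tested genes were also called in the same direction. Under library totals, the split over all tested genes at 10 µM against IL1β went from 2454 higher and 2504 lower to 3082 and 1911. Between doses it went from 2093 and 2169 to 2826 and 1389. The matrix genes then numbered 8 higher and 8 lower against IL1β and 9 and 7 between doses. With length and GC content offsets they numbered 5 higher and 15 lower at 10 µM against IL1β, and 5 and 13 between doses. All tested genes then split into 2215 higher and 3476 lower against IL1β, and 1734 and 3597 between doses.

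Cells given IL1β and 10 µM CDD-2728 differed from vehicle in 19 of 35 matrix genes. Of these, 14 were higher and 5 lower, where 18.2% of all tested genes were higher and 16.4% lower. These are 40% and 14.3% of the matrix genes, against 30.1% and 11.3% of the 452 genes at least as abundant as the middle matrix gene. FBLN1, COL1A1, COL12A1 and FN1 were called here and not with IL1β alone against vehicle, and COL3A1 and LOXL1 were called there in the opposite direction. Both reversals depended on scaling. With library totals COL3A1 was not called here (log2 0.15, edgeR adjusted p = 0.0991), nor LOXL1 with IL1β alone (log2 0.11, adjusted p = 0.295). LAMB3, COL8A1, COL7A1 and LOX were at least 2-fold higher, at 7.84-, 5.49-, 3.18- and 2.14-fold, and COL5A2, NID1, COL4A1, COL4A2, COL6A1, COL6A2, FBLN1, COL3A1, PLOD2 and LOXL2 were also called higher. With length and GC content offsets LOXL2 was not called (log2 0.04, adjusted p = 0.555), and COL3A1, COL6A1 and COL6A2 were at 0.17, 0.18 and 0.23 in place of 0.27, 0.32 and 0.37. LOXL1, COL1A1, LAMB1, COL12A1 and FN1 were lower. That count was smaller without vehicle replicate 1 and without 10 µM replicate 2, as was the lower count over all tested genes. With library totals the counts were 11 higher and 8 lower, while the split of all tested genes went from 2870 higher and 2586 lower to 2107 and 4125.

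At the matched dose of 1 µM, the single pair of compounds compared, 2 matrix genes were higher with CDD-3013 than with CDD-2728 and 9 lower, where 9.85% of all tested genes were higher and 8.01% lower. These are 5.71% and 25.7% of the matrix genes. Of the 452 genes at least as abundant as the middle matrix gene, 29.6% were higher and 10.2% lower. DCN and COL6A2 were higher, by 0.25 and 0.20 (edgeR adjusted p = 0.0425 and 0.0492), and COL12A1, LAMC1, NID1, HSPG2, FN1, FBN1, FBN2, LOX and PLOD2 were lower. FBN2 had the lowest value among them at -0.48 (95% interval -0.69 to -0.27, adjusted p = 0.00472), followed by HSPG2 at -0.44 (-0.70 to -0.18, adjusted p = 0.0235) and COL12A1 at -0.43 (-0.63 to -0.22, adjusted p = 0.00747). The count of 9 rested on single libraries: it was smaller without 1 µM CDD-2728 replicate 2 and without CDD-3013 replicate 2. Calls over all tested genes were fewer in both these fits as well. The median log2 difference of the matrix genes was -0.07 in each, against -0.11 with all libraries. The count of 2 also depended on which library was left out. The other 24 were not called, with differences from -0.52 to 0.23, which does not show that the compounds act alike. With library totals, 0 were higher and 11 lower, and the split of all tested genes went from 1550 higher and 1261 lower to 1034 and 1965.

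Transcript length moved with the CDD-3013 comparisons. The middle tested matrix gene has a longest transcript of 6494 bases, against 3352 for all tested genes. Of the 2149 tested genes of at least 6494 bases, 50.9% were lower with CDD-3013 than with IL1β alone and 3.82% higher. Their median log2 change was -0.31, and that of tested genes under 3352 bases was 0.17. The matrix genes, with 48.6% lower and a median of -0.18, were near that share for long genes. Against 1 µM CDD-2728, 31.4% of the long genes were lower with CDD-3013, and 25.7% of the matrix genes were. In the IL1β comparison 24.4% of the long genes rose and 17.4% fell, and with 10 µM CDD-2728 15.5% rose and 25% fell.

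With offsets for length and GC content in the fit, 13 matrix genes rather than 17 were lower with CDD-3013 than with IL1β. All tested genes then split into 2589 higher and 1594 lower. Without offsets, the count of 17 was smaller when IL1β replicate 1 was left out, as was the lower count over all tested genes. With the offsets, FN1, PLOD2, LAMA3, LAMB1 and COL7A1 lost the call and LOXL2 gained it (log2 -0.20, edgeR adjusted p = 0.00659). Those that kept it included HSPG2 (-0.67), LOX (-0.57), FBN2 (-0.31) and FBN1 (-0.28). Of the 6 higher genes, LAMB3 and FBLN1 lost the call, and COL1A2, COL5A2 and LAMA4 gained it. Between the compounds at 1 µM, the 9 lower genes became 4, NID1, HSPG2, FBN2 and, newly called, COL1A1 (log2 -0.26, edgeR adjusted p = 0.0248). All tested genes split there into 409 higher and 148 lower, in place of 1550 and 1261 without offsets. Under library totals 5 matrix genes were higher and 19 lower with CDD-3013 than with IL1β. The split of all tested genes went from 2994 higher and 2729 lower to 2285 and 3548.

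**Figure D5:**
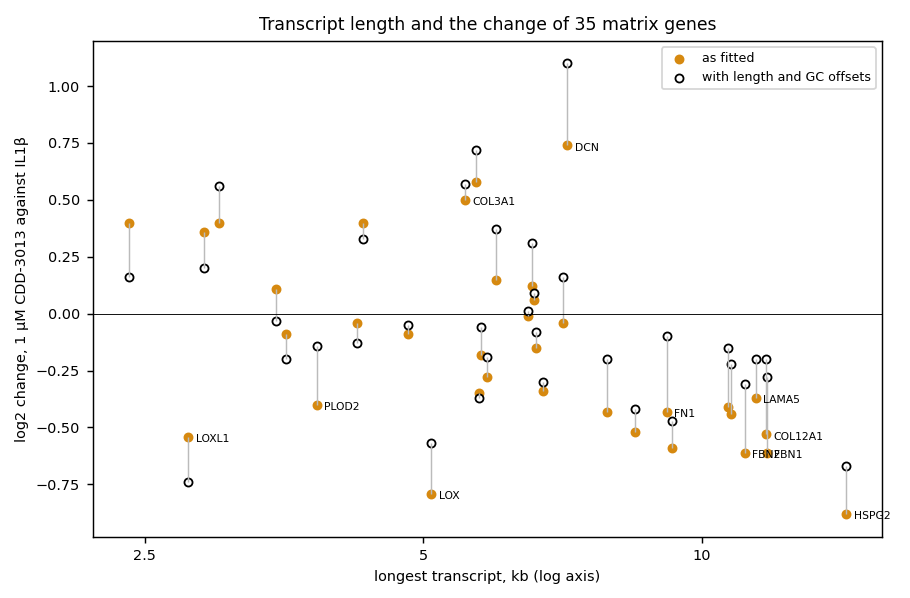
Log2 change with 1 µM CDD-3013 against IL1β for the 35 tested genes by longest transcript in kb on a log axis, as fitted (filled) and with length and GC content offsets (open), joined by a line for each gene. The open points of the longest genes lie closer to 0, and HSPG2, LOX and LOXL1 remain below -0.5 in both.

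Genes beside the listed ones were counted by role from lists that hold none of the 37, and their counts are to be read against the shares of all tested genes, 17.6% higher and 15% lower with IL1β, 15.6% and 15.9% at 10 µM CDD-2728 and 19% and 17.3% with CDD-3013. In lists of so few genes, counts near these shares say nothing particular about the list. Of 26 tested genes for collagen folding and export, 9 rose and 3 fell with IL1β, 9 rose and 5 fell at 10 µM CDD-2728 against IL1β, and 8 rose and 8 fell with CDD-3013. SEC24D, part of the coat that carries procollagen out of the endoplasmic reticulum, rose by 0.94 with IL1β (edgeR adjusted p = 7.72e-10). CREB3L1, a transcription factor that acts on collagen genes, was at -0.40, -1.01 and -0.47 with 1 µM CDD-2728, 10 µM CDD-2728 and CDD-3013 against IL1β (adjusted p = 0.00208, 1.13e-09 and 5.43e-05). SERPINH1, the collagen chaperone HSP47, was 0.57 higher with CDD-3013 (adjusted p = 2.82e-06). Among 7 tested propeptide-processing genes, 1 rose and 1 fell with IL1β. BMP1, the procollagen C-proteinase that also activates lysyl oxidase, was the one that rose (log2 0.54, edgeR adjusted p = 6.61e-07), and ADAMTS2, the N-proteinase, was lower in each inhibitor group, at -0.35, -0.40 and -0.39 (adjusted p = 0.00432, 0.00021 and 0.000234).

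Of 12 other collagen genes tested, 4 rose and 1 fell with IL1β. COL4A5, another type IV chain, rose by 0.53 (edgeR adjusted p = 1.03e-05) and was at -0.38, -0.55 and -0.66 in the inhibitor groups against IL1β (adjusted p = 0.00421, 1.22e-05 and 2.43e-06), and COL17A1, a hemidesmosome collagen, rose from a mean of 0.471 to 2.08 CPM (adjusted p = 0.000287). Among 10 other laminin and basement membrane genes 0 rose with IL1β and 2 fell, NTN4 and TINAGL1, and 5 fell with CDD-3013. Other crosslinking genes gave 1 rise among 4 with IL1β, TGM2 (log2 0.87, edgeR adjusted p = 2.11e-05), a transglutaminase. Elastic fibre and microfibril genes gave 2 rises and 4 falls among 18 with IL1β, and 6 rises and 1 fall with CDD-3013. Other proteoglycan and link protein genes gave 2 rises and 2 falls among 11 with IL1β, with HAPLN3 at 1.14 (adjusted p = 1.81e-07). Non-integrin matrix receptors gave 3 rises and 5 falls among 15. SDC4, or syndecan 4, a fibronectin receptor, rose 6.50-fold (edgeR adjusted p = 2.58e-18), and CD44, the hyaluronan receptor, 2.37-fold (adjusted p = 4.3e-13). CD44 was at -0.33, -0.85 and -0.50 in the inhibitor groups against IL1β (adjusted p = 0.0031, 1.4e-09 and 8.18e-06).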

How the data were processed

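Poly(A)-enriched RNA of 10 libraries was analysed from 1 table of gene counts that the authors deposited. The build was hg38, and the tools named were fastp, STAR and featureCounts (per the submitters' processing notes). No version, annotation or strand setting was found there (not given in the sources used here). IDs were named through GENCODE 29, with 61918 matched by version, 707 without version and 125 unmatched. All 10 libraries entered 1 fit in edgeR 4.0.16 (R 4.3.3): filterByExpr by group, TMM factors, a robust quasi-likelihood F test for each of 7 contrasts, and Benjamini-Hochberg adjustment over 15740 genes with a threshold of 0.05. Standard errors and 95% intervals are Wald values held at or above counting error, so they can be wider than the test's own. CPM use TMM-scaled library sizes, and levels per kb use summed exon length. The 37 members and the other lists were chosen with earlier results of these data known. Values per library are given for members called with a log2 change of at least 0.5 in size in any comparison, and for their partner chains. Genes outside the list are the up to 3 per list and comparison with the smallest adjusted p. A partner chain outside the list is not reported here. Samples with the same replicate number did not deviate together, so the fit is unpaired. The fit was tested on simulated data. Alternatives were other scaling (DESeq2 1.42.0 among the tools), filters, offsets for longest transcript length and GC content, a replicate block and leaving out each library. Promoter letters are from RefSeq.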

Additional observations from a re-analysis of the deposited data

How the results depend on the processing

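Of 42 changes of at least 0.5 on the log2 scale, 38 kept their call and direction in all 19 settings and 0 reversed; the other 4 are given with COL8A1, BGN and COL7A1 above. Counts of matrix genes called moved by over 1.5 times as follows. With library totals, IL1β against vehicle gave 9 higher and 9 lower, CDD-3013 against CDD-2728 gave 0 higher, and 10 µM CDD-2728 against vehicle gave 8 lower. With length and GC content offsets, which 97.3% of tested genes could be given, the counts were 5 lower with IL1β, 5 higher at 10 µM against IL1β, 5 higher and 13 lower between doses, 0 higher and 4 lower between compounds, and 9 lower for 10 µM against vehicle. The replicate block together with these offsets gave 5 higher at 10 µM against IL1β, 5 and 13 between doses, 0 and 4 between compounds, and 9 lower against vehicle. The replicate block alone gave 0 higher between compounds, as did fitting only the 4 libraries compared. Relative log expression factors gave 1 and a minimum of 5 CPM in 2 libraries gave 1. The cause was not tested. The block changed no other count of matrix genes by over 1.5 times. Correlations of deviations between same-numbered samples were -0.11 to 0.05 over 10 pairs of groups. Leaving out each library gave 1 to 4 lower with IL1β, 0 to 4 higher and 2 to 5 lower with 1 µM CDD-2728, 5 to 8 higher at 10 µM, 11 to 17 lower with CDD-3013, 4 to 10 higher between doses, 0 to 2 higher and 1 to 12 lower between compounds, and 3 to 6 lower for 10 µM against vehicle. A lone sample was assumed to vary like the other groups. With longest transcript length in place of exon length, each log2 chain ratio shifted equally in all groups, and these changed sign: COL6A1 to COL6A2 was -0.09 in vehicle, -0.13 with IL1β, -0.15 and -0.14 at 1 and 10 µM CDD-2728 and -0.28 with CDD-3013, LAMA3 to LAMB3 was 0.07 with IL1β, LAMA5 to LAMB1 was -0.10 in vehicle, and LAMB1 to LAMC1 was 0.25 in vehicle. With 2 libraries per group and 80 to 291 counts in all for NID2 and COL6A3, small differences in these genes were not detectable at this depth.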
